A study of Mus musculus with 4 samples.

Results

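The response to imiquimod was measured across all genes in back skin of mice labelled Ovol1 null. The comparison sets 2 droplet libraries of single cells against each other, one from untreated skin and one from skin that had received imiquimod. Cells were chosen by barcode suffix and then by 3 rules on their counts of unique molecular identifiers (UMIs, one per captured transcript). Epithelial cells had more UMIs of Krt5, Krt14, Krt1 and Krt10 than of Col1a1, Col1a2, Col3a1 and Dcn and none of Ptprc. Fibroblast-side cells had the reverse, and Ptprc-positive cells had at least 1 UMI of Ptprc, the leukocyte surface phosphatase CD45. These rules gave 10831 cells of 23455 barcodes in the series. Genes of the rules were not read as results. Both libraries came from mice of strain CD1, with an age of 7 to 8 weeks given for each library. The treated ones had been given 62.5 mg of a 5% imiquimod cream once, on the shaved back, at an age of 7 to 8 weeks, and cells had been sorted by flow cytometry before loading. The series also holds an untreated and an imiquimod library labelled control, from the same strain and protocol. How many mice went into a library, the time between cream and harvest, the sorting gate and the Ovol1 allele are not given in the sources used here. Each group is 1 library, so groups could not be tested against each other, no p-value is given, and 95% intervals cover counting error only, without the variation between mice or preparations.

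Imiquimod is a small-molecule agonist of Toll-like receptor 7 that sets off type I interferon in plasmacytoid dendritic cells and, on skin, a psoriasis-like inflammation carried by IL-23 and IL-17. Keratinocytes answer IL-17, IL-36 and interferon with alarmins, activation keratins, antimicrobial proteins and chemokines, while fibroblasts below them make acute-phase proteins and chemokines. OVOL1 is a zinc-finger repressor of transcription known from differentiating keratinocytes, where it restrains proliferation.

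The gene named by the genotype label was not lower in the libraries that carry it. In epithelial cells Ovol1 stood at 26.5 CPM (UMIs of the gene per 1000000 UMIs of the class) in control untreated, 35.4 in control imiquimod, 38.7 in labelled-null untreated and 90.1 in labelled-null imiquimod. In fibroblast-side cells it stood between 2.45 and 8.59 CPM. Counts of 3′ ends that lie beyond a deletion say nothing of it, so these values do not check the genotype, and the libraries are called labelled null. Epithelial cells numbered 2692 untreated and 1857 with imiquimod, fibroblast-side cells 2398 and 3494, and Ptprc-positive cells 165 and 225. Both libraries held 32356860 and 56973042 UMIs. The imiquimod cells were deeper, with a median of 12620 against 5732 UMIs in epithelial, 7852.5 against 5895 in fibroblast-side and 6139 against 3269 in Ptprc-positive cells. Its shallowest kept cell had 3039 UMIs against 1449. The libraries shared 46 barcode sequences, within the 37 to 47 of the 6 pairs of libraries. The class names were checked against markers that the rules did not use. The 8 fibroblast markers summed to 37102 and 14655 CPM in fibroblast-side cells and to 1082 and 475 in epithelial cells. The 8 epithelial markers summed to 11638 and 7429 CPM in epithelial cells, and the 6 leukocyte markers to 3448 and 3067 CPM in Ptprc-positive cells.

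Interferon acts through a factor that binds the interferon-stimulated response element (ISRE), a DNA motif near the start of many of its targets. The promoters of 3 genes of the interferon list described next are shown because they hold the core of that motif, searched here as GAAA, any 2 bases and GAAA again, on both strands. Each runs from 250 bases before to 50 bases after the start of the transcript, in the direction of the gene, from RefSeq on GRCm38.p6. Capitals mark every base covered by a match on either strand, and matches that overlap form one run.
Isg15 (chr4:156200769-156201068, minus strand): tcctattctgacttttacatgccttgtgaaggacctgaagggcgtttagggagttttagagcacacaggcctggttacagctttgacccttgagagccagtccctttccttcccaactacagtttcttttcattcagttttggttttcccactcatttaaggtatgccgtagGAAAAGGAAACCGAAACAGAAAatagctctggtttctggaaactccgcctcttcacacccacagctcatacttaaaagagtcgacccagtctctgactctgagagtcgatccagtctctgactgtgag
Ifit1 (chr19:34640639-34640938, plus strand): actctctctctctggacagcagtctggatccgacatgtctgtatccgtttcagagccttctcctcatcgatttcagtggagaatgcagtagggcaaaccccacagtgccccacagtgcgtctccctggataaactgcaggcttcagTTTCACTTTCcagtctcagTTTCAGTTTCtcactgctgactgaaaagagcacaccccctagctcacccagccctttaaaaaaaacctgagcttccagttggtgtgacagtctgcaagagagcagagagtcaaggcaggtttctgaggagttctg
Oas1a (chr5:120907476-120907775, minus strand): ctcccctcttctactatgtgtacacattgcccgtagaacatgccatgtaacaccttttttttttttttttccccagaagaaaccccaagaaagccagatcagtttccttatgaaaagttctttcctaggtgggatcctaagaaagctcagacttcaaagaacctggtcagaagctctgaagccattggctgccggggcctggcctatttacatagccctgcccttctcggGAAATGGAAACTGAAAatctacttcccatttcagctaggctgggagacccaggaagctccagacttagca
Of 27025 genes with such a promoter, 3.99% held the motif in at least 1 promoter. Of the interferon list, 33 members were measured in epithelial cells, 24 of these had a promoter in the table and 14 held the motif. A match is a description of the letters and no measure of binding. Isg15 encodes a ubiquitin-like antiviral protein, Ifit1 a protein that binds viral RNA and Oas1a an enzyme that makes the second messenger of RNase L.

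In epithelial cells imiquimod came with a large set of higher genes led by alarmins, activation keratins, small proline-rich proteins and interferon targets. A gene counts as higher or lower here when its CPM differed at least 2-fold between both libraries, among genes with at least 50 UMIs over both. A gene near 0 UMIs in one library passes this minimum only through the other, where it is high. Counts and medians of lists with such genes are partly set by that. Pairs of CPM values give the untreated library first and the imiquimod library second, the range in parentheses after a fold is its exact 95% counting interval, and a gene at 0 UMIs is given as a bound against 3 counts in that library. By the 2-fold rule 1229 of 11810 genes (10.4%) were higher and 1482 (12.5%) lower, and the median log2 ratio of all genes was -0.08. With equal numbers of cells per UMI bin, 988 genes were higher and 623 lower. In sums over a class, more cells with a transcript and more of it per cell cannot be told apart, and the shares of cells are given further on.

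Genes of the type I interferon response were higher almost throughout. Of the list 31 of 33 measured members were at least 2-fold higher and none lower, with a median log2 ratio of 4.31, where 10.4% of all genes were higher. Isg15 stood at 2.56 and 251 CPM in the untreated and the imiquimod library, 97.9-fold (72.6 to 135) higher. The other genes whose promoters are printed, Ifit1 and Oas1a, stood at 0.596 and 28.9 CPM and 0.417 and 42.9 CPM, 48.5-fold (26.2 to 102) higher and 103-fold (49.7 to 256) higher. Irf7, the transcription factor that amplifies interferon production, stood at 1.43 and 95.7 CPM, 66.9-fold (44.9 to 105) higher. Ifi27l2a, an interferon-induced mitochondrial protein, reached 1225 from 13.1 CPM, 93.8-fold (82.1 to 108) higher. The restriction factor genes Bst2 and Ifitm3 stood at 8.34 and 407 CPM and at 484 and 3324 CPM, and were 48.7-fold (41.2 to 58.0) higher and 6.86-fold (6.71 to 7.02) higher. Ifi44 had 0 UMIs in the untreated library and was at least 70.8-fold higher. Stat2, a signal transducer of the interferon receptor, was 3.39-fold (2.68 to 4.33) higher. Isg20, a nuclease, and Herc6, an ISG15 ligase, were the 2 members under the 2-fold line, at 4.11 and 4.62 CPM and 3.81 and 6.88 CPM. Genes of the interferon-gamma type, GTPases of cell-autonomous defence and their regulators, were higher in 10 of 13 with none lower (median 2.33), among them Gbp3 (73.2-fold higher, 20.0 to 608). In the antigen presentation list 9 of 16 were higher (median 1.09), led by the immunoproteasome gene Psmb10 at 27.8 and 92.2 CPM. Over members measured in both pairs, the medians in labelled-null and control skin were 4.33 and 4.23, 2.43 and 3.11 and 1.09 and 0.72 for the 3 lists.

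The alarmin pair S100a8 and S100a9, which together form calprotectin, stood first among all genes when ranked by the counting bound nearest 1. S100a8 had 21 UMIs in all untreated epithelial cells and 275608 with imiquimod, or 1.25 and 10361 CPM, 8277-fold (5415 to 13372) higher. S100a9 stood at 1.01 and 5291 CPM, 5222-fold (3261 to 8964) higher. Neutrophils also make both. The 7 neutrophil markers summed to 0.775 and 6.84 CPM in this class, with 1 of them measured, and Ly6g and Ngp were at 0 UMIs in the imiquimod library. The beta-defensin gene Defb3 had 0 UMIs untreated and stood at 84.9 CPM with imiquimod, at least 475-fold higher. Lcn2, an iron-withholding antibacterial protein, was 35.0-fold (28.9 to 42.8) higher, and Slpi, a protease inhibitor, 35.0-fold (22.1 to 59.4) higher. Of this list 8 of 11 were higher (median 4.21). Its lower members were the constitutive beta-defensin gene Defb1, at 81.1 and 25.4 CPM (3.19-fold lower, 2.91 to 3.51), and Wfdc21, at 10.3 and 0.338 CPM (30.3-fold lower, 15.6 to 67.4). The acute-phase gene Saa3, more typical of stroma, was also among the 15 highest, at 3.10 and 459 CPM. In fibroblast-side cells of the imiquimod library Saa3 stood at 17084 CPM, and the part of mixed cells in the epithelial value was not tested.

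The activation keratins, which wounded and psoriatic epidermis makes in place of its resting set, were higher in 4 of 4 (median 7.41). Krt6a stood at 7.87 and 1222 CPM, 155-fold (131 to 186) higher, and its partner Krt16 at 7.75 and 1446 CPM, 187-fold (157 to 223) higher. Krt6b had 1 UMI in the untreated library and 13819 with imiquimod, 8716-fold (1564 to 344269) higher. Krt17, already at 1331 CPM in untreated cells, was 2.22-fold (2.19 to 2.25) higher. In the stefin A family, inhibitors of cysteine cathepsins, 7 of 7 were higher (median 5.56), and BC100530 reached 9592 from 58.2 CPM, 165-fold (155 to 176) higher. BC117090 stood at 2.38 and 285 CPM. Small proline-rich genes, whose products are crosslinked into the cornified envelope, were higher in 13 of 13 (median 5.77). The other genes of this list, of 22 in the data, did not reach the UMI minimum. Those named next had 1 or 2 untreated UMIs and reached it through the imiquimod library. Sprr1b went from 2 to 3385 UMIs (1067-fold higher, 295 to 8818), Sprr2d from 2 to 3099 (977-fold higher, 270.3 to 8073) and Sprr2h from 1 to 2926 (1845-fold higher, 331 to 72914). Keratin 6, small proline-rich, stefin and serpin b3 genes have near-identical copies, and how reads were split among copies is uncertain.

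Genes of proteases and, less so, of serpin inhibitors were higher more often than lower. Of the kallikreins and other desquamation genes 8 of 14 were higher and 1 lower (median 1.46). Klk6 had 1 UMI untreated and 1394 with imiquimod, 879-fold (158 to 34750.4) higher, and Klk7, which cleaves corneodesmosomes, stood at 12.5 and 122 CPM. Serpinb3a was 300.0-fold (102 to 1456) higher. Of the serpin list 6 of 15 were higher and 2 lower (median 0.52), where 10.4% of all genes were higher and 12.5% lower. Over the 12 members measured in both pairs its median was -0.44. The connexin gene Gjb2, coding for the gap junction protein connexin 26, stood at 0.536 and 116 CPM, 217-fold (114 to 475) higher, while control skin had 2.82 and 2.34 CPM. The Nrf2 target Slc7a11, a cystine transporter, stood at 0.179 and 17.2 CPM, and 7 of 15 of its list were higher.

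Genes for secreted signals were higher in the same cells. Of the neutrophil-attracting chemokines and colony-stimulating factors 5 of 6 were higher (median 3.39). Cxcl1 stood at 3.93 and 106 CPM, 27.0-fold (21.2 to 35.0) higher, and Cxcl2 at 4.89 and 37.3 CPM, 7.62-fold (6.08 to 9.67) higher. Il6 was 14.4-fold (10.6 to 19.9) higher, a log2 ratio of 3.84. That ratio was 1.68 in cells with at least 4 times more keratin-rule than collagen-rule UMIs and at least 10 of them. The imiquimod level of Il6 in fibroblast-side cells was 364% of the epithelial one, and the part of mixed cells was not tested. Ccl20, which draws CCR6-bearing type 17 lymphocytes, stood at 10.1 and 219 CPM, 21.7-fold (18.6 to 25.4) higher. Among other chemokines 11 of 18 were higher and 1 lower, the latter being Cxcl14, a chemokine of resting epithelium, at 279 and 138 CPM, a difference that turned in cells matched for UMIs (log2 0.27). Ccl27a, the skin chemokine for CCR10-bearing T cells, was lower, at 3343 and 264 CPM, a log2 ratio of -3.66, and was 2.05-fold higher in control skin. Its symbol stands under more than 1 gene identifier, so it is not in the count of the list, and the row that passed the UMI minimum is given. Among IL-1 family genes 6 of 13 were higher (median 0.65). Il1f6, which encodes IL-36 alpha, stood at 0.0596 and 16.3 CPM, 274-fold (48.9 to 10836) higher. Il1f9, which encodes IL-36 gamma, was 8.04-fold (6.44 to 10.1) higher. The decoy receptor gene Il1r2 was 2.71-fold (2.48 to 2.96) lower, against 2.30-fold higher in control skin. EGF-family ligands and wound genes were higher in 9 of 14, among them Areg (4.47 and 23.8 CPM) and Tgfa (3.81 and 17.5 CPM), but their median of 1.20 was 0.34 in cells matched for UMIs.

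The lower genes included some members of the resting programme of basal and suprabasal keratinocytes, while its cornified envelope genes went the other way. Of these 5 of 10 were higher and none lower (median 0.96), where 10.4% of all genes were higher. In cells with more Krt1 and Krt10 than Krt5 and Krt14 UMIs, 8 of 10 were higher and none lower (median 1.67). Krt15, a keratin of resting basal and follicle cells, stood at 5682 and 840.2 CPM, 6.76-fold (6.66 to 6.86) lower. Krt77, a suprabasal keratin, stood at 598 and 75.5 CPM, 7.92-fold (7.55 to 8.32) lower, and 4 of 5 of the differentiation keratins outside the class rule were lower (median -2.77). On the basal and the suprabasal side taken alone, where 2 and 4 could be measured, the medians were -1.12 and -1.40. Krt2, a keratin of the upper layers, stood at 5.13 and 0.150 CPM (34.1-fold lower, 12.8 to 128). The exception, Krt79 of the upper hair follicle, stood at 606 and 1179 CPM. Mt4, the metallothionein of stratified epithelia, was 7.61-fold (7.33 to 7.91) lower, and Calm5, a calmodulin-like skin protein, 7.32-fold (6.77 to 7.92) lower. Of the hemidesmosome and basement membrane list 2 of 12 were lower, where 12.5% of all genes were lower. These were Krt15, the basal keratin given above, and Dst, which encodes the plakin BPAG1, at 238 and 76.1 CPM. Desmosome and junction genes stood mostly within 2-fold, with 2 higher and 1 lower of 11 and 1 and 2 of 14. Of the Ovol, Zeb and mesenchymal list 5 of 18 were higher and 3 lower (median -0.01). Chosen after their values were seen, 3 transcription factors were lower: Trp63, the master factor of stratified epithelium, at 423 and 192 CPM (2.20-fold lower, 2.13 to 2.28), Ovol2, the paralogue of Ovol1, at 22.8 and 9.14 CPM (2.50-fold lower, 2.12 to 2.95), and Ahr, the aryl hydrocarbon receptor, at 81.4 and 22.3 CPM (3.66-fold lower, 3.32 to 4.04). The remaining genes of the 10 lowest were Baiap2l1 (21.8-fold lower, 19.2 to 24.9), Pkib (7.52-fold lower, 6.81 to 8.31), Alox12e (6.18-fold lower, 5.60 to 6.83), Trim7 (6.20-fold lower, 5.56 to 6.93) and Sh3d21 (6.37-fold lower, 5.51 to 7.39). Their control ratios stood between 0.421 and 1.25. Baiap2l1 was high in the labelled-null untreated library alone, at 206 CPM, against 9.44 in labelled-null imiquimod. It stood at 16.0 CPM in control untreated and 13.9 in control imiquimod.

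Metabolic lists were higher as groups. Of glycolysis and hypoxia genes 17 of 21 were higher (median 1.64), with Ldha, lactate dehydrogenase, at 236 and 1028 CPM and Gapdh at 345 and 1598 CPM, 4.36-fold (4.22 to 4.51) higher and 4.62-fold (4.50 to 4.75) higher. Of sterol and fatty acid synthesis 15 of 23 were higher (median 1.09), led by Sqle, squalene epoxidase, at 10.4 and 72.9 CPM (7.03-fold higher, 6.02 to 8.26) and Cyp51 at 16.2 and 73.5 CPM. Of barrier lipid synthesis 13 of 20 were higher (median 1.44), among them Sdr9c7 (50.8-fold higher, 13.8 to 423) and the ceramide desaturase gene Degs1 at 87.0 and 313 CPM. S phase genes were higher in 14 of 20 (median 1.32), such as Mcm5, a subunit of the replicative helicase, at 8.70 and 39.4 CPM (4.53-fold higher, 3.81 to 5.43) and Ccne1, cyclin E1, at 0.596 and 7.14 CPM. In G2 and M phase 4 of 22 passed the line (median 0.53), and Mki67 and Top2a stood at 18.5 and 25.1 CPM and at 43.8 and 43.9 CPM. In control skin the medians of these 5 lists, in this order and over the 20, 23, 18, 18 and 22 members measured in both pairs, were 0.89, -0.48, 0.17, -0.46 and -1.13, beside 1.64, 1.09, 1.26, 1.29 and 0.53 in labelled-null skin. They moved with depth: in 977 cells per library matched for UMIs they were 1.20, 0.72, 0.49, 0.90 and -0.62, so that the G2 and M list changed sign.

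The make-up of the epithelial class differed between libraries. Cells with more Krt5 and Krt14 than Krt1 and Krt10 UMIs, the basal side, numbered 1727 and 1520, and cells of the suprabasal side 955 and 319. Some lists stood at like medians on both sides and others did not. The median of the interferon list was 4.04 on the basal and 4.50 on the suprabasal side, that of activation keratins 6.99 and 8.46, that of small proline-rich genes 5.12 and 6.06 and that of sterol synthesis 1.23 and 1.85. Neutrophil chemokines differed between the sides, with a median of 3.47 on the basal side and 0.17 over the 3 measured on the suprabasal one. S phase differed, at 1.13 on the basal and -0.30 on the suprabasal side. Hemidesmosome genes also differed, at -0.48 and -2.39. S100a8 stood at 1.10 and 9412 CPM on the basal side and 1.48 and 14409 CPM on the suprabasal side, and Krt6a at 11.2 and 1297 CPM and 2.97 and 933 CPM. Krt15 stood at 6782 and 1009 CPM and 4065 and 162 CPM. Upper hair follicle markers, which include Krt17 and Krt79, summed to 5076 CPM untreated and 9899 with imiquimod, and sebocyte markers to 215 and 372, beside the lipid lists. Markers of other cells differed too: Langerhans cell markers summed to 391 and 725 CPM, fibroblast ones to 1082 and 475, red blood cell ones to 525 and 347, mural ones to 75.3 and 186, T cell ones to 18.1 and 54.5 and endothelial ones to 10.7 and 49.3. Their part in the results was not tested.

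The share of cells with a UMI differed in the same directions. An S100a8 UMI was seen in 0.669% (0.397 to 1.05) of untreated and 87.4% (85.8 to 88.9) of imiquimod cells of the epithelial class by exact Clopper-Pearson intervals. Krt6a was seen in 2.01% (1.51 to 2.61) of untreated and 70.8% (68.6 to 72.8) of imiquimod cells, and Isg15 in 1.15% (0.784 to 1.63) of untreated and 72.5% (70.4 to 74.5) of imiquimod cells. After each cell was thinned to 1000 UMIs, which left out no cell, the shares were 0.0743% and 65.0% for S100a8, 0.632% and 39.3% for Krt6a and 0.186% and 18.8% for Isg15. Free RNA in a droplet also gives UMIs. In fibroblast-side cells of the imiquimod library, which should lack Krt6a, 13.1% (12.0 to 14.3) held a UMI of it, and 2.38% after thinning. Krt15 went the other way, with 98.0% (97.4 to 98.5) of untreated and 54.8% (52.5 to 57.0) of imiquimod cells, or 86.1% and 27.0% thinned.

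**Figure D1:**
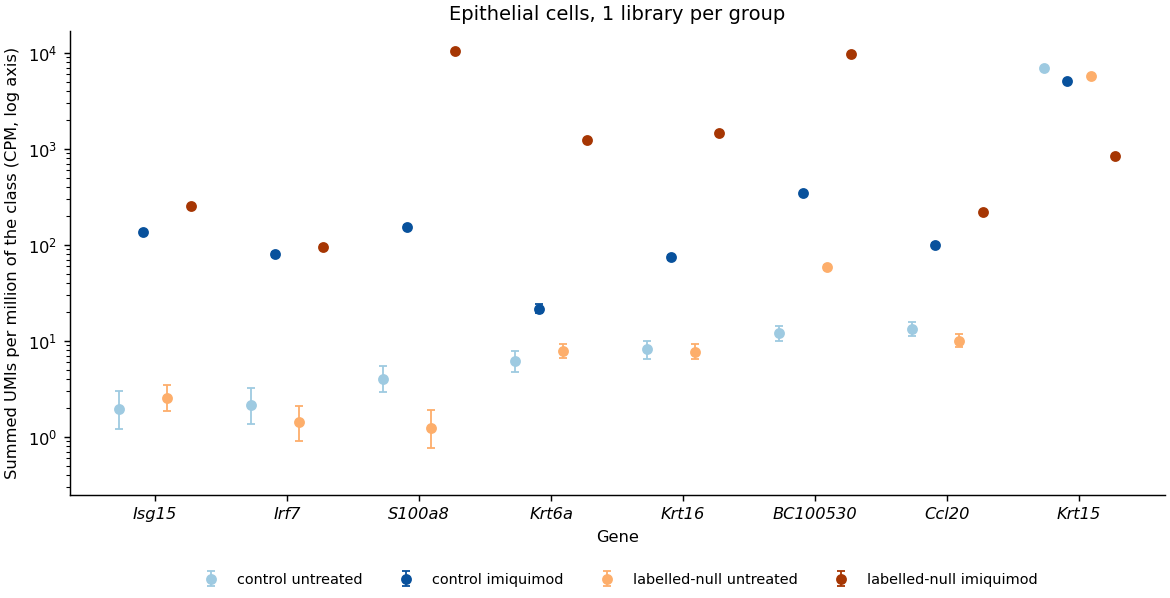
Levels of 8 genes in epithelial cells of all 4 libraries, as CPM on a log axis (1 library per group, bars are exact Poisson 95% intervals). In the labelled-null imiquimod library S100a8 stood at 10361 CPM against 154 in control imiquimod, while Isg15 stood at 251 and 137.

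Beside the control pair, which shares no library with this one, the epithelial differences were larger in the medians of the epidermal lists. Over members with at least 50 UMIs in both pairs, the medians in labelled-null and control skin were 7.28 and 1.81 for 3 activation keratins, 4.21 and 1.32 for 9 alarmins, 6.07 and 1.46 for 5 stefins, 6.48 and 1.96 for 8 small proline-rich genes and 3.39 and 0.80 for 4 neutrophil chemokines. Krt6b and Defb3 did not reach this minimum in control skin, with 3 and 8 UMIs in control imiquimod, and are not in these medians. Members such as Sprr1b and Sprr2d passed it through the imiquimod libraries where they are high. S100a8 stood at 4.04 and 154 CPM in control skin, and the labelled-null ratio was 214 (128 to 359.9) times the control ratio. For Krt6a, at 6.21 and 21.8 CPM in control skin, the quotient of both ratios was 44.4 (32.5 to 60.6), for Krt16, at 8.18 and 74.0 CPM, 20.7 (15.7 to 27.2), and for BC100530, at 12.0 and 344 CPM, 5.78 (4.80 to 6.96). For Isg15, at 1.98 and 137 CPM, it was 1.43 (0.849 to 2.39), and for Irf7, at 2.16 and 79.6 CPM, 1.82 (1.03 to 3.22). Intervals of quotients cover counting error only, and the difference between genotype labels was not tested. Across 10950 genes measured in both pairs, Pearson's r of the log2 ratios was 0.467 as a description, since genes are not independent replicates.

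**Figure D2:**
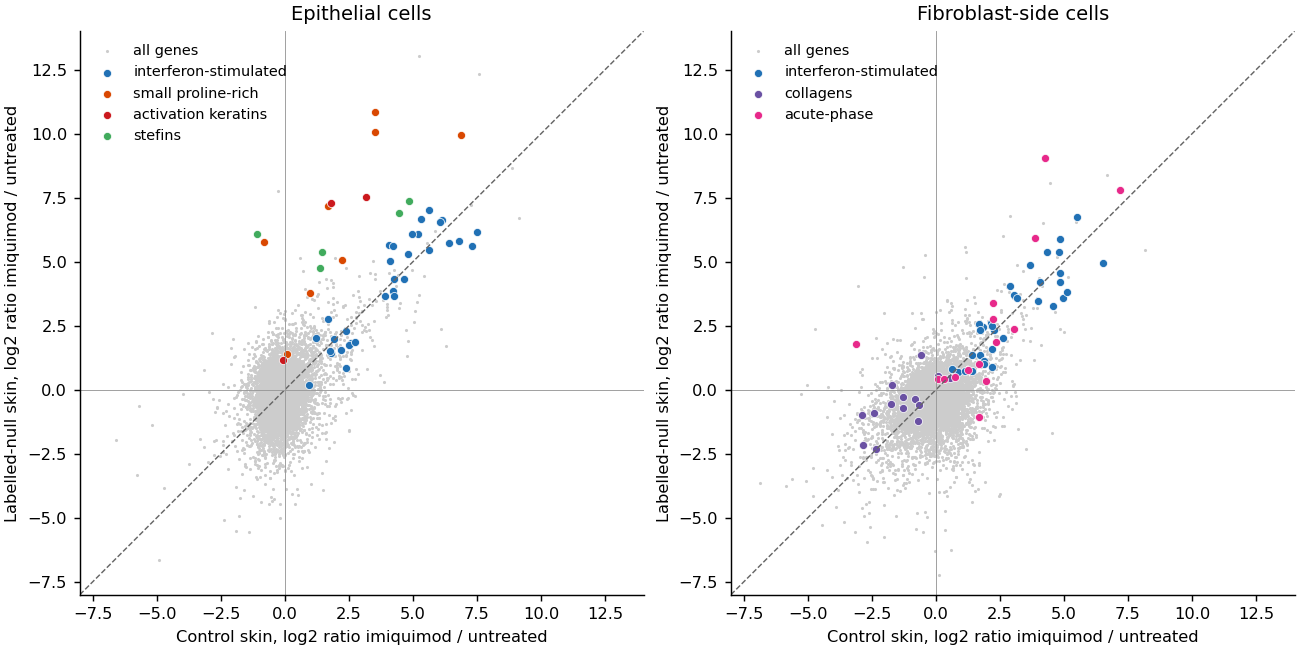
Log2 ratio of imiquimod over untreated for each gene in labelled-null skin (y axis) against control skin (x axis), in epithelial and fibroblast-side cells, genes with at least 50 UMIs in both pairs in grey, with list members in colour. Interferon genes lie near the dashed line of equal ratios, and in epithelial cells the activation keratins, stefins and small proline-rich genes lie above it (medians of the 8 plotted members 6.48 against 1.96 for the last).

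In fibroblast-side cells acute-phase and interferon genes were higher, and more genes were lower than higher over all. Of 12046 genes measured 581 (4.82%) were at least 2-fold higher and 1757 (14.6%) lower, with a median log2 ratio of -0.23 over all genes. TMM scaling shifts every log2 ratio in this class by 0.21 and gives 790 higher and 1260 lower genes, so list medians here are read against that of all genes. The most abundant of the higher genes was Saa3, a serum amyloid A of inflamed stroma. It stood at 76.9 and 17084 CPM, or 479554 UMIs with imiquimod, 222-fold (209.6 to 236) higher. Saa1 stood at 0.618 and 332 CPM, 537-fold (283 to 1176) higher. Of the acute-phase and complement list 9 of 16 were higher and 2 lower (median 1.40). Lcn2 stood at 7.08 and 789.6 CPM, 112-fold (92.0 to 137) higher, and the protease inhibitor gene Serpina3n at 264 and 2763 CPM, 10.5-fold (10.1 to 10.8) higher. The complement genes Cfb and C4b were 6.79-fold (6.22 to 7.43) higher and 5.21-fold (4.62 to 5.89) higher. Cfd, complement factor D of fat and stroma, went from 110 to 2 UMIs, 106-fold (28.7 to 887) lower, and the acid glycoprotein gene Orm1 stood at 8.59 and 4.10 CPM. Across 11757 genes measured in both pairs, Pearson's r with the control log2 ratios was 0.425, as a description.

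Interferon genes were higher here as well. Of the list 29 of 34 were higher and none lower (median 2.95, and over the 33 members measured in both pairs 2.63 with 2.63 in control). Irf7 stood at 5.84 and 626 CPM, 107-fold (86.7 to 134) higher, with a UMI in 3.38% (2.69 to 4.18) of untreated and 90.4% (89.3 to 91.3) of imiquimod cells. These shares were not thinned, and the imiquimod cells were deeper, at a median of 7852.5 against 5895 UMIs. Ifi27l2a stood at 8.18 and 489 CPM, 59.8-fold (49.9 to 72.3) higher, and Ifit1 at 2.89 and 68.0 CPM, 23.6-fold (17.4 to 32.8) higher. Lgals3bp, a secreted glycoprotein that interferon induces, was 29.1-fold (25.7 to 33.0) higher. GTPases of the interferon-gamma type were higher in 9 of 13 (median 1.46, control 2.52), with Iigp1 at 21.4 and 195 CPM. In the antigen presentation list 8 of 16 were higher, B2m, the light chain of class I molecules, reaching 15236 from 3809.9 CPM. Ly6a and Ly6c1, surface proteins of skin fibroblasts, stood at 1676 and 10852 CPM and 1098 and 6804 CPM. Plac8 was 64.5-fold (43.9 to 98.9) higher, Ctla2a 17.3-fold (16.6 to 18.0) higher and Gdpd3 20.6-fold (16.5 to 26.1) higher.

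Inflammatory mediators of fibroblasts were partly higher. Of that list 8 of 21 were higher and 1 lower (median 0.59, control -0.11). The monocyte chemokine gene Ccl2 stood at 126 and 1026 CPM, 8.13-fold (7.75 to 8.52) higher, and Ccl7 at 281 and 1307 CPM, 4.66-fold (4.51 to 4.81) higher. Ptgs2, the inducible cyclooxygenase, was 8.02-fold (6.48 to 10.0) higher, and the alarmin gene Il33 stood at 4.26 and 46.7 CPM. In control skin these 2 genes stood at 4.17 and 2.21 CPM and 4.13 and 5.61 CPM. The lower member was Ptgds, prostaglandin D synthase, 46.3-fold (12.1 to 393) lower. It reached the UMI minimum in 6 of 12 alternatives. Melanocyte markers in this class summed to 62.9 CPM untreated and 9.65 with imiquimod, and their part in this result was not tested. Several genes of inflammation differed in opposite directions in both pairs. Il6 stood at 57.0 and 137 CPM in labelled-null skin, 2.40-fold (2.23 to 2.59) higher, and at 88.4 and 25.4 CPM in control skin, 3.48-fold lower. Tnfaip6, which modifies hyaluronan, was 2.78-fold (2.70 to 2.86) higher against 2.83-fold lower. Lif, a cytokine of the IL-6 family, was 3.90-fold (2.90 to 5.35) higher against 2.89-fold lower. These differences between genotype labels were not tested.

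Matrix genes were mixed. Of all genes in this class 14.6% were lower and 4.82% higher (median -0.23). The shares of the collagen list lie near these, while collagen processing genes were lower more often. Of collagens outside the class rule 3 of 14 were lower and 1 higher (median -0.58, control -1.30), with Col5a1 at 273 and 62.2 CPM (4.39-fold lower, 4.15 to 4.65) and Col15a1 at 231 and 46.2 CPM. Of collagen processing genes 5 of 17 were lower and none higher (median -0.75, control -1.67), and the proline synthesis gene Pycr1 stood at 27.2 and 2.03 CPM. Of elastic fibre and matrix glycoprotein genes 7 of 25 were lower, among them Sparc, a collagen-binding protein, at 30862 and 9611 CPM (3.21-fold lower, 3.20 to 3.23), Eln, elastin, at 662 and 216 CPM and Fn1, fibronectin, at 337 and 85.2 CPM. The 3 higher members were Tnc, tenascin C of wounds, at 3.37 and 94.5 CPM (28.1-fold higher, 21.2 to 38.0), Thbs1, thrombospondin 1, at 33.3 and 321 CPM (9.66-fold higher, 8.82 to 10.6), and Prelp at 214 and 507 CPM. Tnc stood at 2.69 and 1.11 CPM in control skin, 2.43-fold lower. Matrix proteases and inhibitors were split, 4 of 13 higher and 4 lower. Timp1, an inhibitor of metalloproteinases, stood at 34.3 and 712 CPM, 20.8-fold (19.0 to 22.7) higher, and Mmp3, stromelysin 1, at 1059 and 2087 CPM, while control skin had 31.6 and 70.6 CPM and 1054 and 426 CPM.

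Regulators of growth were lower in 10 of 29 and higher in 3, where 14.6% of all genes were lower and 4.82% higher. Their median was -0.22, beside -0.23 for all genes. Igfbp5, an IGF-binding protein, stood at 1621 and 159.5 CPM, 10.2-fold (9.84 to 10.5) lower, and at 1707 and 136 CPM in control skin. Bmp4 stood at 86.1 and 20.3 CPM (4.23-fold lower, 3.83 to 4.68) and Wif1, a secreted Wnt inhibitor, at 27.6 and 5.70 CPM. Fst, the activin antagonist follistatin, was 7.64-fold (6.83 to 8.57) higher, and Grem1, a BMP antagonist, 4.30-fold (4.01 to 4.63) higher. Other genes among the 10 lowest were Angptl1 (14.6-fold lower, 13.3 to 16.0), Meg3, an imprinted noncoding RNA (12.9-fold lower, 12.4 to 13.4), Kazald1 (11.6-fold lower, 10.5 to 12.9) and Cib3 (11.1-fold lower, 9.25 to 13.5), and they were lower in control skin too, by 2.20 to 9.46-fold.

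Some of the steepest genes in fibroblast-side cells stood far higher in epithelial cells. S100a8, S100a9 and BC100530 stood at 1.10 and 295 CPM, 0.550 and 184 CPM and 2.27 and 214 CPM, and were 269-fold (165 to 470.3) higher, 334-fold (169 to 774) higher and 94.3-fold (67.1 to 137) higher. In the imiquimod library these levels were 2.85%, 3.47% and 2.23% of those in epithelial cells, and Krt6a, a keratinocyte gene, stood at 3.22%. By contrast the fibroblast-side level was 3724% of the epithelial one for Saa3, 654% for Irf7, 3657% for Timp1 and 350.3% for Lcn2. The lowest genes included keratinocyte and leukocyte transcripts: Krt77 (26.7-fold lower, 21.7 to 33.3), Krt15 (11.1-fold lower, 10.4 to 11.8), Dapl1 (10.6-fold lower, 9.48 to 11.8), Lyz2, lysozyme of myeloid cells (53.9-fold lower, 42.7 to 69.1), and Jchain, the immunoglobulin joining chain, which went from 1248 to 7 UMIs. The 8 epithelial markers summed to 1227 CPM untreated and 272 with imiquimod in this class, all 8 being lower, and the 8 myeloid markers to 215 and 64.7. Schwann cell markers summed to 221 and 31.7 CPM and red blood cell markers to 16.6 and 154. Their part in these results was not tested. In cells with at least 4 times more collagen-rule than keratin-rule UMIs and at least 10 of them, the log2 ratio was 8.06 for S100a8 (all cells 8.07), 7.72 for Saa3 (all cells 7.80) and 4.84 for Tnc (all cells 4.81).

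**Figure D3:**
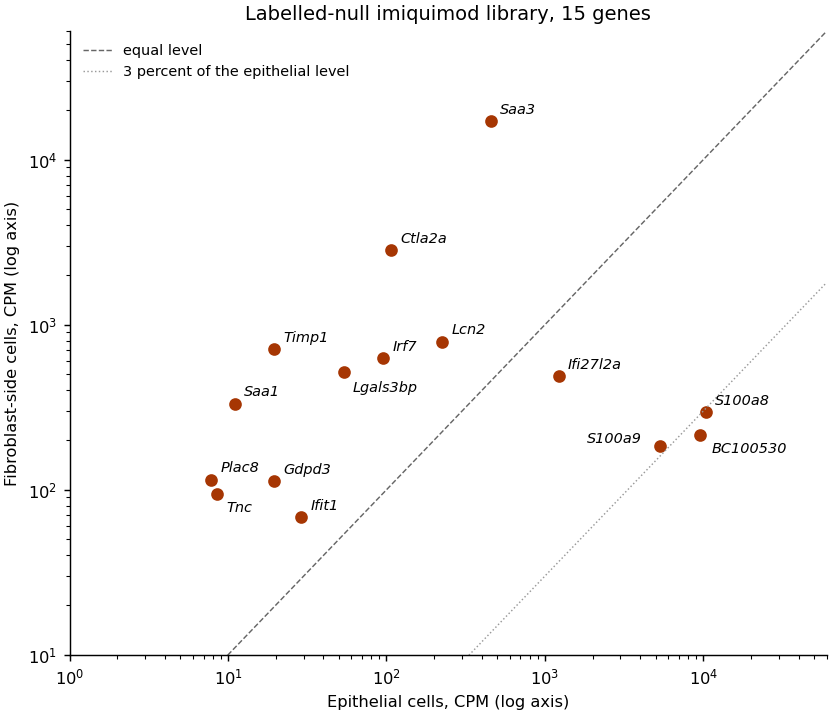
Level of the 15 genes with the steepest higher ratio in fibroblast-side cells (y axis) against the level of the same gene in epithelial cells (x axis), both in the labelled-null imiquimod library, as CPM on log axes, with lines at equal level and at 3 percent of the epithelial level. S100a8, S100a9 and BC100530 lie near the lower line, at 2.85%, 3.47% and 2.23%, Ifi27l2a at 39.9%, and the others above equal level, with Saa3 at 3724%.

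**Figure D4:**
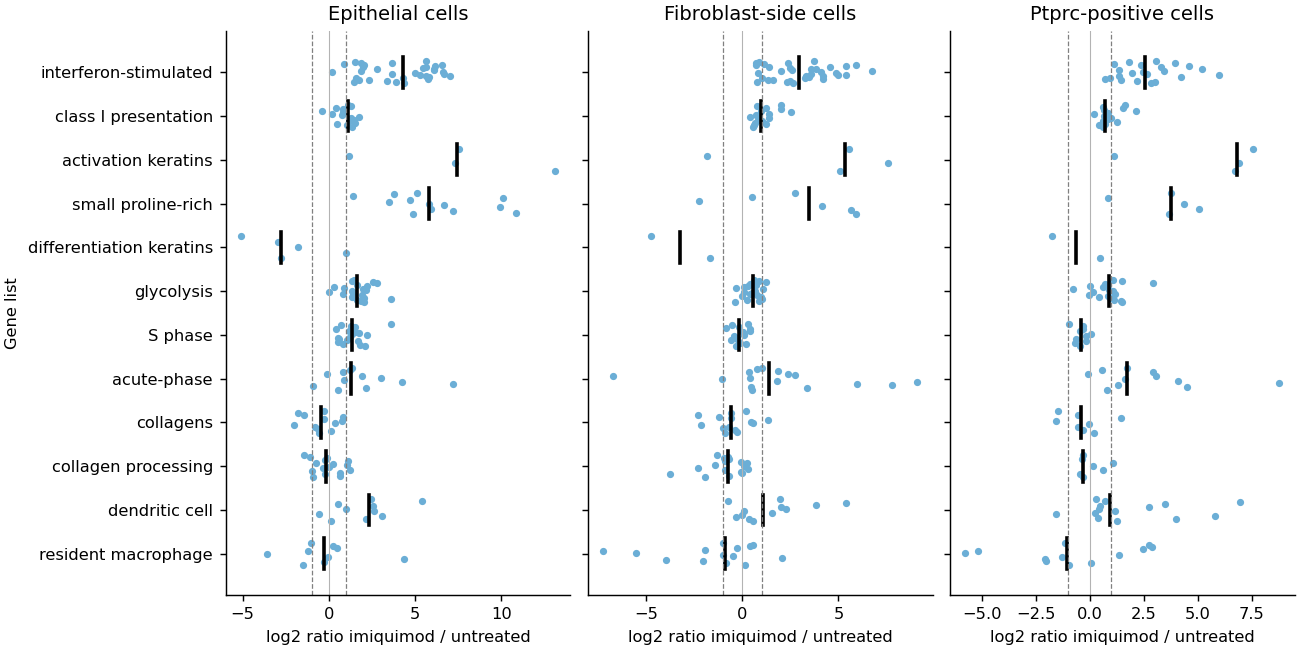
Log2 ratio of imiquimod over untreated for members of 12 gene lists in the 3 cell classes of labelled-null skin (points are genes with at least 50 UMIs, bars are list medians, dashed lines mark 2-fold either way). The medians of the interferon list lie above 2-fold in the 3 classes, at 4.31, 2.95 and 2.54, while that of collagens in fibroblast-side cells lies below 0, at -0.58.

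Ptprc-positive cells were few, and their counts carry wider intervals. Of 5408 genes measured 491 (9.08%) were higher and 261 (4.83%) lower, with a median log2 ratio of 0.13. TMM scaling shifts log2 ratios here by -0.14 and gives 395 higher and 356 lower genes. Across 4915 genes measured in both pairs, Pearson's r with the control log2 ratios was 0.417, as a description. Interferon genes were higher in 20 of 22 with none lower (median 2.54, and over the 17 members measured in both pairs 2.85 with 2.28 in control), with Irf7 at 6.62 and 239.8 CPM, 36.2-fold (16.5 to 99.2) higher. The class held cells with a Cd3 UMI, 92 untreated and 114 with imiquimod, and cells without Cd3 but with at least 10 UMIs of Cd74 and Lyz2, 56 and 68. The interferon medians were 3.13 and 3.24 in these.

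The dendritic and Langerhans cell genes held higher members with large ratios. Of the dendritic and Langerhans list 7 of 14 were higher and 1 lower (median 0.95, and over the 13 members measured in both pairs 0.71 with 0.00 in control). Fscn1, which bundles actin in mature dendritic cells, stood at 4.41 and 244 CPM, 55.3-fold (21.4 to 204) higher. Ccr7, the receptor that leads them to lymph nodes, stood at 22.1 and 245 CPM, 11.1-fold (7.09 to 18.3) higher. Ccl22, a chemokine for CCR4-bearing T cells, had 1 UMI untreated and 252 with imiquimod, 123-fold (21.8 to 4868) higher. Mfge8, which Langerhans cells express, stood at 72.8 and 1148 CPM, 15.8-fold (12.3 to 20.5) higher. Among Cd74 and Lyz2 cells without Cd3 the median of this list was 1.56. Ccl5 stood at 40.8 and 979 CPM, 24.0-fold (17.3 to 34.1) higher, and Cxcl13, a B-cell-attracting chemokine, went from 0 to 782 UMIs, at least 127-fold higher. Class II genes were within 2-fold, with 0 higher and 0 lower of 8.

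Macrophage genes were split. Of the resident macrophage list 6 of 12 were lower and 4 higher (median -1.06, control 0.26), and with a minimum of 200 UMIs per gene the median was 0.0701. The lectin gene Cd209d stood at 324 and 9.14 CPM, 35.5-fold (21.8 to 61.8) lower. Clec10a went from 79 to 3 UMIs, and the lysozyme gene Lyz2 from 3974 to 188 CPM, 21.1-fold (18.9 to 23.6) lower. Cd209a and Lyz1 were 27.7-fold (18.4 to 43.4) lower and 22.3-fold (14.8 to 35.0) lower. The complement genes C1qa, C1qb and C1qc went the other way, at 62.9 and 415 CPM, 30.9 and 225 CPM and 32.0 and 178 CPM. The activating Fc receptor gene Fcgr4 stood at 2.21 and 79.6 CPM, 36.1-fold (9.81 to 300.5) higher, while Ccr2, the receptor of entering monocytes, stood at 182 and 25.3 CPM, 7.21-fold (5.18 to 10.2) lower. Retnlg, a neutrophil gene, went from 55 to 0 UMIs, and the 7 neutrophil markers summed to 77.2 and 26.9 CPM.

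Of the type 17 lymphocyte list 4 of 14 were higher, where 9.08% of all genes were higher and 4.83% lower. Of the higher members 3 were cytokine genes of these lymphocytes. Il17a stood at 283 and 1117 CPM, 3.95-fold (3.47 to 4.52) higher, with a UMI in 20.0% (14.2 to 26.9) of untreated and 38.7% (32.3 to 45.4) of imiquimod cells. Cells were not thinned for these shares, and the imiquimod ones were deeper, at a median of 6139 against 3269 UMIs. Il17f was 4.09-fold (3.26 to 5.19) higher, and Il22 went from 3 to 49 UMIs, 7.96-fold (2.57 to 39.9) higher, while control skin had 198 and 8. Areg, a growth factor for epithelium, stood at 23.2 and 317 CPM, 13.7-fold (8.87 to 22.3) higher. The 1 lower member was the scavenger receptor gene Cd163l1 at 116 and 48.9 CPM, a difference that turned in cells matched for UMIs (log2 0.36), and the list median was -0.39. The receptor gene Il17re stood at 22.1 and 18.8 CPM and the factor Rora at 116 and 137 CPM. In cells with a Cd3 UMI alone the log2 ratio of Il17a was 2.04 and that of Il17f 2.13. The summed level of the T cell markers was 1818 and 1574 CPM. In control skin Il17a stood at 279 and 545 CPM and Il17f at 116 and 72.2 CPM. Of T cell activation genes 3 of 16 were higher and 2 lower (median -0.08), beside 9.08% and 4.83% of all genes. Tnfrsf9, the costimulator 4-1BB, stood at 7.72 and 220.4 CPM (28.5-fold higher, 13.7 to 71.4) and Cd28 at 62.9 and 10.2 CPM.

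Many of the steepest genes in Ptprc-positive cells are known from keratinocytes and fibroblasts. Krt16, Krt6a and Krt6b had 0 UMIs in the untreated library and 1141, 731 and 642 with imiquimod, and Sprr2d, Sprr1b and BC117090 likewise went from 0 to 205, 128 and 126. BC100530, Saa3, S100a8 and Lcn2 stood at 1.10 and 2720.5 CPM, 6.62 and 2849 CPM, 271 and 4997 CPM and 3.31 and 156 CPM. Of these, S100a8 is also made by neutrophils. Its untreated level in this class was 21688% of the epithelial one, and its imiquimod level 48.2%. The part of neutrophils in these values was not tested. The log2 ratio of S100a8 was 4.20, lower in the mean of per-cell CPM and 10.7 in cells matched for UMIs. In this class the imiquimod levels were 42.4% of the epithelial level for Krt16, 32.2% for Krt6a and 28.4% for BC100530, and Saa3 stood at 17084 CPM in fibroblast-side cells of that library. The 8 epithelial markers summed to 2446 and 2391 CPM and the 8 fibroblast markers to 5129 and 3029.6. In cells where the 8 rule genes of keratin and collagen made up under 1% of UMIs (142 and 168 cells), the log2 ratio was 3.78 for Krt16 (all cells 7.53) and 6.07 for BC100530 (all cells 11.27), and Krt6a and Krt6b no longer reached 50 UMIs. There Il17a stood at 2.48, Fscn1 at 6.97 and the interferon median at 3.02. Other low genes were Cd209e (26.7-fold lower, 10.9 to 84.9), Meg3 (12.3-fold lower, 8.49 to 18.2) and Ccl27a (8.54-fold lower, 7.16 to 10.2).

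**Figure D5:**
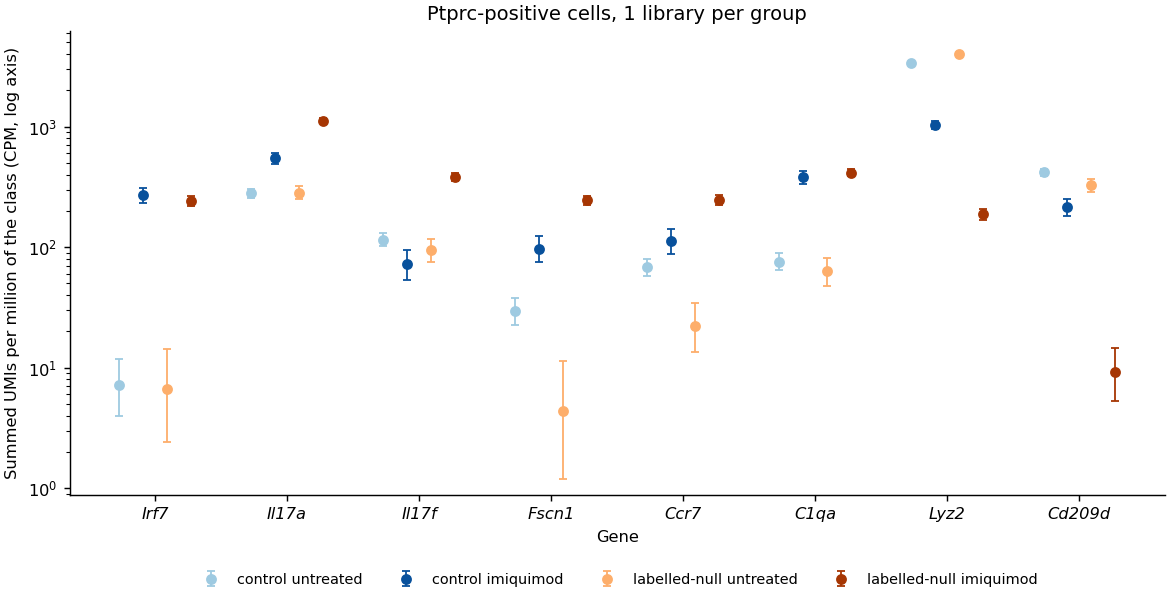
Levels of 8 genes in Ptprc-positive cells of all 4 libraries, as CPM on a log axis (1 library per group, bars are exact Poisson 95% intervals). Il17a stood at 1117 CPM in labelled-null imiquimod and 545 in control imiquimod, and Cd209d was lowest in labelled-null imiquimod at 9.14 CPM.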

How the data were processed

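Single-cell libraries of mouse back skin were read as UMI counts per gene and barcode. The authors deposited one aggregated matrix of counts for 4 libraries, made with Cell Ranger 2.1.0 on mm10 per the submitters' processing notes, and per the labels' protocols with 3′ chemistry of version 2. Aggregation can thin libraries to a shared depth, and the sources used here do not say whether it did. Libraries were told apart by the barcode suffix the labels give. Barcodes with at least 200 genes and at most 10% mitochondrial UMIs passed, and 272 and 56 barcodes of the untreated and the imiquimod labelled-null library did not. UMIs were summed per class and scaled to CPM of the class total. Ratios carry exact conditional binomial intervals, shares Clopper-Pearson intervals and levels Poisson intervals, quotients of ratios have approximate intervals on the log scale, and PCR and droplet capture add error that they do not cover. Genes needed 50 UMIs over both libraries. For quotients of ratios 0.5 was added to each count. Doublets were called with Scrublet in Scanpy 1.11.5 and left out only in an alternative. The automatic threshold marked 6 cells of the untreated labelled-null library, so the median threshold of the libraries, 0.264, was used for all and marked 71 and 108 cells. TMM (edgeR 4.0.16) and DESeq2 1.42.0 size factors, UMI minimums, a mitochondrial limit of 5%, a UMI floor, cells matched for UMIs, per-cell means and stricter or split classes were the other alternatives. The steps were tested on simulated counts. The text names 2 to 6 members per list by size of ratio or defining role, and the 15 highest and 10 lowest genes per class by the counting bound nearest 1 with at least 50 CPM in the higher library, leaving out mitochondrial, ribosomal, haemoglobin, sex-linked and unnamed genes. Some genes that the rule would name are not reported here. A few members beyond that number were named after their values were seen. The cell classes and the 47 gene lists were chosen with earlier results of these data known. Symbols shared by more than 1 identifier numbered 65 and were kept apart. Python 3.11.15, NumPy 2.4.6, SciPy 1.17.1, pandas 2.3.3 and R 4.3.3 were used.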

Additional observations from a re-analysis of the deposited data

Results flagged for a closer look

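The named genes that stood at least 2-fold apart in opposite directions in both genotype labels are given here with the log2 ratio of imiquimod over untreated in labelled-null skin against that in control skin. With 1 library per group, none of these differences was tested. In epithelial cells Ccl27a, a T cell chemokine, stood at -3.66 against 1.03, and Il1r2, the decoy receptor of IL-1, at -1.44 against 1.20. In fibroblast-side cells the matrix gene Tnc stood at 4.81 against -1.28 and the cytokine genes Il6 and Lif at 1.27 against -1.80 and 1.96 against -1.53. Tnfaip6, of hyaluronan binding, stood at 1.47 against -1.50. Orm1, an acute-phase gene, stood at -1.07 against 1.67. Krt15, a keratin of basal keratinocytes, stood at -3.47 against 1.33 in fibroblast-side cells, beside epithelial markers that summed to 1227 and 272 CPM there. In Ptprc-positive cells Il22 stood at 2.99 against -3.00, with 3 and 49 UMIs in labelled-null and 198 and 8 in control skin. The lectin gene Cd209e stood at -4.74 against 1.58, and Ccl27a at -3.09 against 2.11 in the same class.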

How the results depend on the processing

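Of 159 named genes and classes at least 2-fold apart, 157 kept their direction and 150 stayed past 2-fold in each alternative where they could be measured. The counts of higher and lower genes moved most with the minimum of UMIs per gene. With a minimum of 200 they were 804 and 867 in epithelial and 164 and 71 in Ptprc-positive cells, with 803 lower in fibroblast-side cells. With no minimum they were 1965 and 2494, 1379 and 1446, and 892 and 3459, and with 20 in Ptprc-positive cells 862 and 631. In cells matched for UMIs 623 epithelial genes were lower and 324 Ptprc-positive genes higher. The suprabasal side had 818 higher genes, cells with a Cd3 UMI 252 higher and 148 lower, and Cd74 and Lyz2 cells 164 lower. Directions turned for Cxcl14 in epithelial cells matched for UMIs (0.27), for Cd163l1 in Ptprc-positive cells matched for UMIs (0.36) and under an equal UMI floor (1.36), for the G2 and M median in epithelial cells matched for UMIs (-0.62), for the S phase median on the suprabasal side (-0.30) and for the resident macrophage median with a minimum of 200 UMIs (0.0701) and in cells with a Cd3 UMI (2.91). Fewer genes or cells entered each of these, and beyond that the cause was not tested. No paired analysis was possible because the labels carry no replicate numbers and each group is 1 library, and for the same reason no replicate could be left out. Ptprc-positive cells, 165 in the untreated library, gave 5408 genes with 50 UMIs, against 11810 and 12046 in epithelial and fibroblast-side cells.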
